A study of Mus musculus with 15 samples.

Results

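Genes of glucose entry into the hepatocyte and of the glycolytic path to lactate were followed in mouse liver: Slc2a2, Gckr, Pfkl, Pfkp, Pfkfb3, Aldoc, Pklr and Ldha. They were chosen by name, with earlier results of these data known. Every probe set that the platform annotation gives to that single symbol was taken. This took in 16 of 45037 probe sets and 8 of 18193 genes. Pfkfb1, the 9th gene named, is not analysed here. Total liver RNA of 15 male mice, 5 in each of 3 groups, was hybridised to Affymetrix mouse whole genome arrays, 1 per mouse. The XKA group was KKAy mice given XKA, a traditional Chinese herbal medicine, by mouth once daily at 1.5 g/kg for 32 days. The Model group was KKAy mice given distilled water instead. The Normal group was C57BL/6J mice, which also received distilled water. KKAy mice carry the lethal yellow allele of agouti and ate a high-fat diet, whereas the C57BL/6J mice ate chow, and all were 10 weeks old at the start. Strain, diet and supplier therefore cannot be told apart in any comparison with the Normal group. For the sacrifice the methods name a fed state, but for the blood drawn immediately beforehand a fasting one, which leaves the feeding state of these livers unsettled.

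Glucose enters and leaves the hepatocyte through the carrier that Slc2a2 encodes, and is trapped inside it by phosphorylation. Phosphofructokinase then commits the sugar to glycolysis, aldolase splits it, and pyruvate kinase makes pyruvate, which lactate dehydrogenase exchanges with lactate. In liver, insulin and sugars together drive the genes of this path, and the liver form of pyruvate kinase is a classic target of the carbohydrate response factor Mlxipl (ChREBP).

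The stretches just before the transcription starts are shown for the 4 genes whose signal passed the test between the Model and Normal groups, because the pathway is known for control at these promoters. They come from RefSeq on build GRCm38.p6, run 5′ to 3′ on the strand of the gene and end 1 base before the start. Capitals mark matches to the motifs searched on both strands, and a motif read from the opposite strand appears as its reverse complement.
Pklr chr3:89136423-89136622 (+ strand): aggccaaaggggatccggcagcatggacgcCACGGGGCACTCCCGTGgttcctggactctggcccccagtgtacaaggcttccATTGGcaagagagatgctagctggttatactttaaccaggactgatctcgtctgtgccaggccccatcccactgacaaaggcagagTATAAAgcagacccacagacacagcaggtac
Ldha chr7:46845604-46845803 (+ strand): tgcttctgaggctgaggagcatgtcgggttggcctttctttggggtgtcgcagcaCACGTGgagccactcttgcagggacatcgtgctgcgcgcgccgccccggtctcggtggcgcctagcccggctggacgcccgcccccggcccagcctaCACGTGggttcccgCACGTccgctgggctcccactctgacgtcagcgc
Pfkp chr13:6648772-6648921 (- strand): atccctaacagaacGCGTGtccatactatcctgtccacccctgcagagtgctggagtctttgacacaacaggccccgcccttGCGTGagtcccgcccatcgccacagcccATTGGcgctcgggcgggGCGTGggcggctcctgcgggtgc
Aldoc chr11:78322923-78323072 (+ strand): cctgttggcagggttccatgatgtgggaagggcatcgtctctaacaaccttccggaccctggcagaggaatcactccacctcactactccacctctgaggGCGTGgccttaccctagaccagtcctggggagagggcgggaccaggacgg
In Pklr the capitals at -170 to -154 match CACGNG and CNCGTG with 5 bases between them, the paired boxes that ChREBP is known to read. Only 15 of 32851 promoter windows (0.0457%) hold that pair. The same stretch holds TATAAA, found in 13.6% of windows, at -31, and CCAAT, found in 37.4%, on the opposite strand at -117. A second RefSeq start of Pklr, which lies before this one, has none of the motifs in its window. The Ldha stretch holds CACGTG at -145 and at -48 (7.15% of windows hold at least 1) and the hypoxia core ACGTG, which lies within CACGTG, once more on the opposite strand at -34 (19.6%). In Pfkp the other hypoxia core, GCGTG (32.4%), occurs at -136, -68 and -23 and CCAAT on the opposite strand at -40, and in Aldoc GCGTG occurs at -50. The loci given below for Ldha and Pfkp begin before the starts shown, at chr7:46842274 and chr13:6649060. Ldha and Aldoc each have a second RefSeq start, which lies after the one shown. The window of that start holds GCGTG at 41 and on the opposite strand at -59 in Ldha, and on the opposite strand at -39 in Aldoc. The shares are of windows of 300 bases, which run past the start and are longer than the stretches shown. Past the starts shown, the windows also hold GCGTG at 26 and 38 in Ldha and at 30 in Pfkp. The Aldoc window holds, on the opposite strand, GCGTG at 12 and ACGTG at 28. These are matches of letters only, and no binding was measured.

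Deposited probe-set intensities were scaled to a median of 1000 on each array, and every level below is this scaled signal. Log2 changes come from limma with p adjusted by Benjamini-Hochberg over all probe sets, and the lead probe set of a gene is the one with the highest signal averaged over the 15 arrays. The mice are separate animals, and 5 arrays a group limit the precision of each value. All 8 hepatocyte markers lay above the array median in signal and none of their lead probe sets passed in any comparison. All 3 adipocyte markers measured lay below that median. Model replicate 3 and XKA replicate 1 stood apart in 10 acute phase genes, a list taken up with earlier results known. Their mean log2 signal for the list was 1.53 and 1.76 above their own group medians. Results that rest on these arrays are given with and without them. In bulk liver RNA, fewer cells of a type and less RNA per cell cannot be told apart.

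Between the Model and Normal groups, Pklr, Pfkp and Ldha rose and Aldoc fell, while the lead probe sets of Slc2a2, Gckr, Pfkl and Pfkfb3 did not pass. These are 4 of 8 genes, where 11.6% of all 18193 lead probe sets passed (9.48% higher and 2.13% lower). The 8 genes were chosen with earlier results of these data known. No enrichment is therefore read from this count or from the medians below. All 8 leads also lay above the array median, as 11629 of the 18193 did. In a fit of only the 22092 probe sets above it, 4395 passed. Between the XKA and Model groups none of the 8 genes passed, beside 0.137% of all lead probe sets. At an unadjusted p under 0.05, 1 of the 8 passed, Pfkp, against 8.78% of all lead probe sets. Between the XKA and Normal groups Aldoc was the only one of the 8 that passed, and it was lower, where 6.66% of all lead probe sets passed and 1.78% were lower. The scaling moved the split of calls, since the median change of all probe sets between the Model and Normal groups was 0.08 as scaled here, -0.11 in the unscaled deposited values and 0.00 after quantile normalization. Over all probe sets, 2732 were higher and 1072 lower as scaled here, against 1664 and 2264 unscaled and 2304 and 2185 after quantile normalization. The 4 genes kept their direction under each of these scalings. In the unscaled values Pfkp (0.68, adjusted p = 0.0733) and Ldha (0.50, adjusted p = 0.0857) did not pass, and with trimmed mean scaling Ldha (0.53, adjusted p = 0.0618) did not pass.

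The median log2 change of the 8 genes was 0.58 between the Model and Normal groups and 0.15 over all genes. The same medians were -0.24 and -0.06 between the XKA and Model groups, and 0.19 and 0.10 between the XKA and Normal groups. These comparisons share arrays, the Model arrays standing in the first 2 and the Normal arrays in the first and last.

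**Figure D1:**
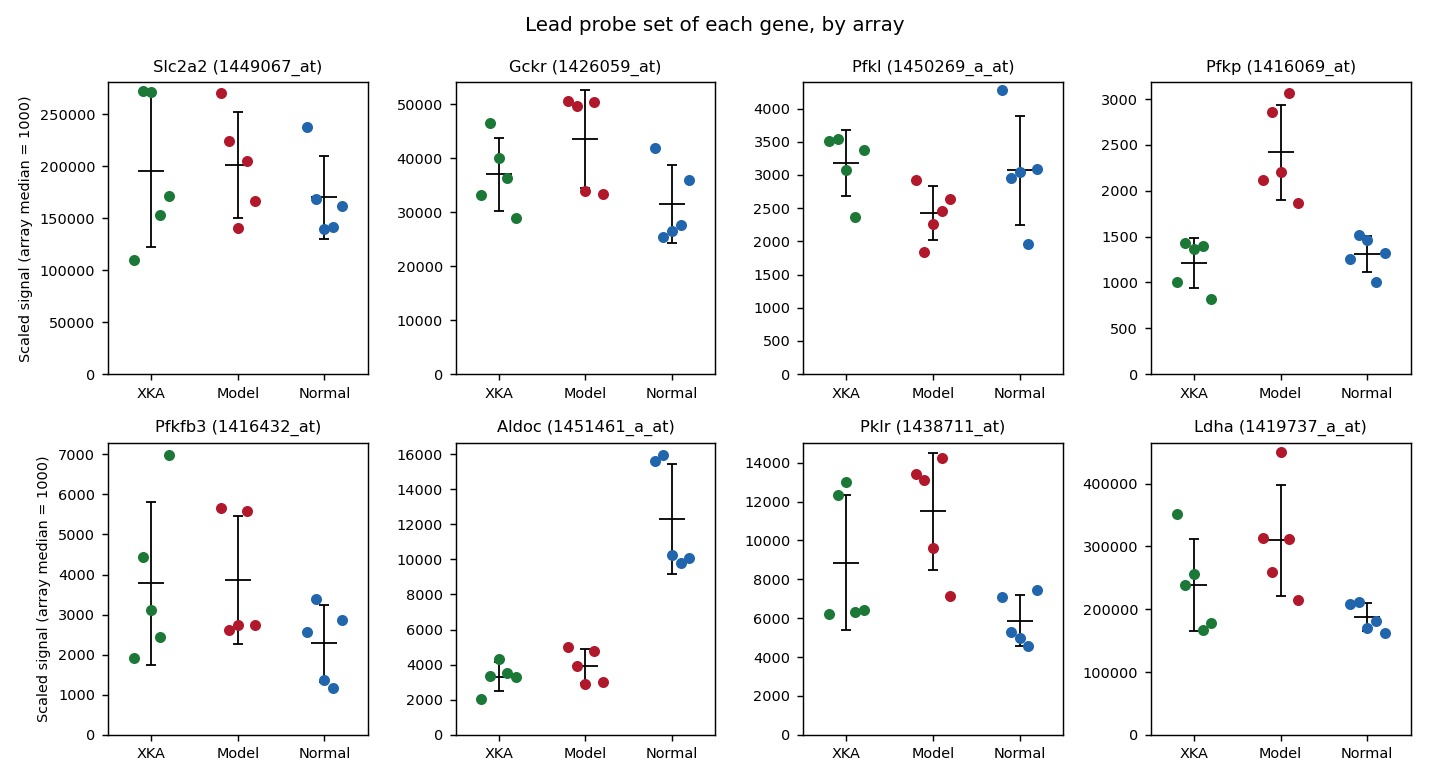
Scaled signal (array median 1000) of the lead probe set of each of the 8 genes on every array, in the XKA, Model and Normal groups from left to right. Points are arrays (n = 5 per group), the horizontal line is the group mean and the bars are ± 1 SD. Aldoc lies between 2053 and 5027 in both KKAy groups and at 9806 or above in the Normal group, and Pfkp in the Model group lies above every array of the other groups.

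Slc2a2 encodes GLUT2, the glucose carrier of the hepatocyte membrane (chr3:28697903-28728361). Its 1 probe set read 109383, 272347, 271220, 153283 and 171113 in XKA replicates 1 to 5, and 269830, 224223, 140058, 204902 and 165956 in Model replicates 1 to 5. The Normal arrays read 237556, 168700, 139862, 141165 and 161788. The 3 groups covered much the same range. The log2 change was 0.23 between the Model and Normal groups (95% interval -0.26 to 0.72, adjusted p = 0.642 from limma). In the XKA group relative to the Model group it was -0.09 (-0.58 to 0.40, adjusted p = 0.959).

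Gckr encodes the glucokinase regulatory protein, which holds back the phosphorylation of glucose when sugar is scarce (chr5:31297266-31327302). It read 33150, 46525, 40015, 36270 and 28864 in the XKA group, and 50580, 49672, 33922, 50333 and 33441 in the Model group. The Normal group read 41843, 25360, 26435, 27598 and 36031. Model replicates 1, 2 and 4 lay above every array of the other groups, and the other Model arrays lay among them. The Model minus Normal log2 change of 0.47 (standard error 0.17, 95% interval 0.12 to 0.83) had an unadjusted p of 0.012 and an adjusted p of 0.101 from limma. It passed without Model replicate 5 (0.56, adjusted p = 0.0479) and without Normal replicate 1 (0.58, adjusted p = 0.0386). The XKA minus Model change was -0.23 (-0.59 to 0.13, adjusted p = 0.781).

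Phosphofructokinase is assembled from liver, platelet and muscle type subunits, encoded by Pfkl, Pfkp and Pfkm. Of these, Pfkp (chr13:6579874-6649060) was the member that separated the Model group from both others. Its lead probe set read 1009, 1429, 1370, 1402 and 823 in the XKA group, against 2113, 2861, 2208, 3071 and 1865 in the Model group. The Normal group read 1254, 1515, 1459, 1008 and 1319. The lowest Model array lay above the highest array of either other group. The means were 1210 ± 274 in the XKA group, 2420 ± 516 in the Model group and 1310 ± 199 in the Normal group (SD, n = 5 each).

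Relative to the Normal group, Pfkp in the Model group rose by 0.87 on the log2 scale (standard error 0.24, 1.83-fold, adjusted p = 0.0276 from limma). Model arrays all above Normal arrays were seen in 8.19% of all lead probe sets. The XKA minus Model change was -1.01 (standard error 0.24, 95% interval -1.52 to -0.51), a ratio of 0.495. Its unadjusted p was 0.000462 and its exact two-sided permutation p was 0.00794, the smallest that 5 arrays against 5 allow. Its adjusted p of 0.15 did not pass. XKA arrays all below Model arrays were seen in 0.995% of all lead probe sets. The XKA and Normal groups differed by -0.14 (-0.64 to 0.37, adjusted p = 0.859). Without Model replicate 2, Model replicate 4 or Normal replicate 4, the Model minus Normal change was 0.78 to 0.81 with an adjusted p of 0.0746 to 0.0821.

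The other probe sets of Pfkp did not share this pattern. One (1430634_a_at) read 356 to 1190 in the XKA group, 168 to 990 in the Model group and 95 to 967 in the Normal group. Its XKA minus Model change was 0.45 (adjusted p = 0.914) and its Model minus Normal change 1.18 (adjusted p = 0.324). The other (1437759_at) read 85 to 563 in the XKA group, 184 to 714 in the Model group and 148 to 441 in the Normal group, with an XKA minus Model change of -1.22 (adjusted p = 0.632). Both averaged below the array median, where the spread between arrays was wide.

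Markers of macrophages and neutrophils had changes of the same sign as Pfkp. All 5 macrophage markers (Adgre1, Cd68, Clec4f, Csf1r and Cd5l) had negative XKA minus Model changes, with a median of -0.59, and positive Model minus Normal changes, with a median of 0.58. Their summed signal was 86357 to 178258 in the XKA group, 109493 to 302993 in the Model group and 97196 to 166824 in the Normal group. None of these passed in either comparison. The 4 neutrophil markers (S100a8, S100a9, Ngp and Camp) also had negative XKA minus Model changes, with a median of -0.40, and positive Model minus Normal changes, with a median of 0.41. Their summed signal was 5896 to 23382 in the XKA group, 11119 to 28708 in the Model group and 5292 to 8201 in the Normal group. S100a8 rose by 2.16 in the Model group relative to the Normal group (adjusted p = 0.00123), and its XKA minus Model change was -1.14 (adjusted p = 0.411). Of 4 skeletal muscle markers, 1 of them above the array median, all had negative XKA minus Model changes and 3 had positive Model minus Normal changes, none of which passed. Their summed signal was 1123 to 3090 in the XKA group, 1999 to 3881 in the Model group and 1879 to 2733 in the Normal group. These signs were not particular to such cells. Both erythroid markers measured had the signs of Pfkp in both comparisons, and so had 6 of 8 hepatocyte markers in each. Of 4 stellate markers, 3 had the opposite sign in each. The part of these cell types in the Pfkp result was not tested.

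Pfkl, the main subunit of liver phosphofructokinase (chr10:77986947-78009807), gave probe sets that disagreed in direction. The lead probe set (1450269_a_at) read 2361 to 3549 in the XKA group, with a median of 3382, 1840 to 2926 in the Model group, with a median of 2461, and 1964 to 4274 in the Normal group, with a median of 3050. Its changes were 0.39 between the XKA and Model groups (-0.04 to 0.82, adjusted p = 0.668) and -0.31 between the Model and Normal groups (-0.74 to 0.12, adjusted p = 0.433). The other probe sets, 1439148_a_at and 1453541_at, had Model minus Normal changes of 0.53 (adjusted p = 0.169) and 0.77 (adjusted p = 0.131). Their XKA minus Model changes were -0.26 (adjusted p = 0.829) and -0.58 (adjusted p = 0.658). No direction is given for this gene.

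Pfkm, the muscle type subunit, had a Model minus Normal change of -0.25 (adjusted p = 0.321), which passed with unscaled deposited values (-0.44, adjusted p = 0.0405), and an XKA minus Model change of 0.04 (adjusted p = 0.973).

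Pfkfb3 makes fructose 2,6-bisphosphate, the activator of phosphofructokinase that signals abundant sugar (chr2:11471430-11554071). Its lead probe set read 1913, 4437, 3110, 2442 and 6988 in the XKA group, and 5659, 2615, 2745, 5573 and 2746 in the Model group. The Normal group ranged from 1179 to 3398, with a median of 2569. The KKAy groups each held arrays well above the Normal range and arrays within it. The Model minus Normal change of 0.79 (standard error 0.36, 0.05 to 1.53) had an adjusted p of 0.205, and the XKA minus Normal change of 0.70 (-0.04 to 1.44) one of 0.358. The XKA minus Model change was -0.09 (-0.83 to 0.65, adjusted p = 0.973). The other probe set averaged 334 and did not pass in any comparison.

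Aldoc, the aldolase isoform otherwise known from brain, had the largest change of the 8 lead probe sets (chr11:78323073-78327781). Its lead probe set read 2053, 3356, 4342, 3530 and 3305 in the XKA group, and 5027, 3900, 2878, 4752 and 3034 in the Model group, against 15599, 15931, 10241, 9806 and 10079 in the Normal group. Every KKAy array lay below every Normal array, and the KKAy groups overlapped. Aldoc fell by 1.65 on the log2 scale in the Model group relative to the Normal group (standard error 0.22, a ratio of 0.318, adjusted p = 3.53e-05 from limma). It fell by 1.90 in the XKA group relative to the Normal group (standard error 0.22, a ratio of 0.268, adjusted p = 7.15e-06). Groups that do not overlap, with the first lower, were seen in 2.38% and 1.99% of all lead probe sets in these comparisons.

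The XKA minus Model change of Aldoc was -0.24 (-0.69 to 0.20, adjusted p = 0.831), with means of 3320 ± 821 in the XKA group and 3920 ± 973 in the Model group (SD, n = 5 each). A second, dimmer probe set (1424714_at) had changes of -1.07 between the Model and Normal groups (adjusted p = 0.353) and -2.10 between the XKA and Normal groups (adjusted p = 0.058). Its XKA arrays, at 49 to 170, all lay below the Normal arrays, at 235 to 822. The XKA minus Normal change of this probe set passed with unscaled deposited values (-2.26, adjusted p = 0.0343), with trimmed mean scaling (-2.22, adjusted p = 0.0325), without the intensity trend (-2.10, adjusted p = 0.0435) and with a pseudocount of 100 (-1.37, adjusted p = 0.0475). Of the other aldolase genes listed, Aldoa, the muscle and red cell form, changed by -0.47 between the Model and Normal groups (adjusted p = 0.0923). Of its 4 other probe sets, 2 passed and were lower (-0.54, adjusted p = 0.041, and -0.79, adjusted p = 0.0153).

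Pklr encodes the pyruvate kinase of liver and red cells, which use different promoters of the 1 gene (chr3:89136122-89146815). Its lead probe set read 6205, 12322, 12984, 6343 and 6430 in the XKA group, and 13395, 13086, 9606, 14256 and 7155 in the Model group. The Normal group read 7082, 5300, 4977, 4559 and 7433. All Model arrays but replicate 5 lay above all Normal arrays. XKA replicates 2 and 3 lay at the Model level and the other 3 XKA arrays within the Normal range. Pklr rose by 0.95 in the Model group relative to the Normal group (standard error 0.24, 1.94-fold, adjusted p = 0.0143 from limma). The XKA minus Model change was -0.42 (-0.91 to 0.08, adjusted p = 0.691) and the XKA minus Normal change 0.54 (0.04 to 1.03, adjusted p = 0.262).

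The other probe sets of Pklr, 1421258_a_at and 1421259_at, had Model minus Normal changes of 0.29 (-0.21 to 0.80, adjusted p = 0.552) and 0.04 (-0.98 to 1.06, adjusted p = 0.98). With the mean of the 3 probe sets the gene changed by 0.43 and did not pass (adjusted p = 0.297). Which probe sets read the liver transcript and which the red cell one was not resolved here. Of 4 erythroid markers listed, 2 were measured. Alas2, the haem synthesis enzyme of red cell precursors, rose by 1.88 in the Model group relative to the Normal group (adjusted p = 1.55e-06). Hba-a1 averaged 641, below the array median, and changed by 0.53 (adjusted p = 0.707). The summed signal of both was 21586 to 29945 in the XKA group, 24682 to 40633 in the Model group and 6454 to 14626 in the Normal group. Their part in the Pklr result was not tested.

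Pkm, the pyruvate kinase of most other tissues, averaged 1036, close to the array median, and changed by -0.18 between the Model and Normal groups (-1.03 to 0.67, adjusted p = 0.863). Its XKA minus Model change was -0.20 (-1.05 to 0.65, adjusted p = 0.944).

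Ldha, the A subunit of lactate dehydrogenase (chr7:46842274-46855627), has 1 probe set here. It read 351199, 238164, 255438, 167584 and 178737 in the XKA group, and 313591, 259799, 449981, 312370 and 214384 in the Model group. The Normal group read 208843, 211351, 169917, 180560 and 162571. Every Model array lay above every Normal array, and the lowest Model array lay just above the highest Normal array. Ldha rose by 0.70 in the Model group relative to the Normal group (standard error 0.20, 1.62-fold, adjusted p = 0.0381 from limma). The XKA minus Model change was -0.39 (-0.81 to 0.04, adjusted p = 0.667).

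The highest Ldha array in each KKAy group, Model replicate 3 and XKA replicate 1, was the array with the highest acute phase signal. Of the 10 acute phase genes, 7 rose between the Model and Normal groups, and their part in the Ldha result was not tested. Without Model replicate 3 the Model minus Normal change was 0.55 (adjusted p = 0.115), and without both arrays it was 0.55 (adjusted p = 0.0532). Pfkp, Pklr and Aldoc still passed without both. Ldha also did not pass without Model replicate 1 or 4 or Normal replicate 3, 4 or 5, with changes of 0.65 to 0.69 and an adjusted p of 0.0772 to 0.0947.

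**Figure D2:**
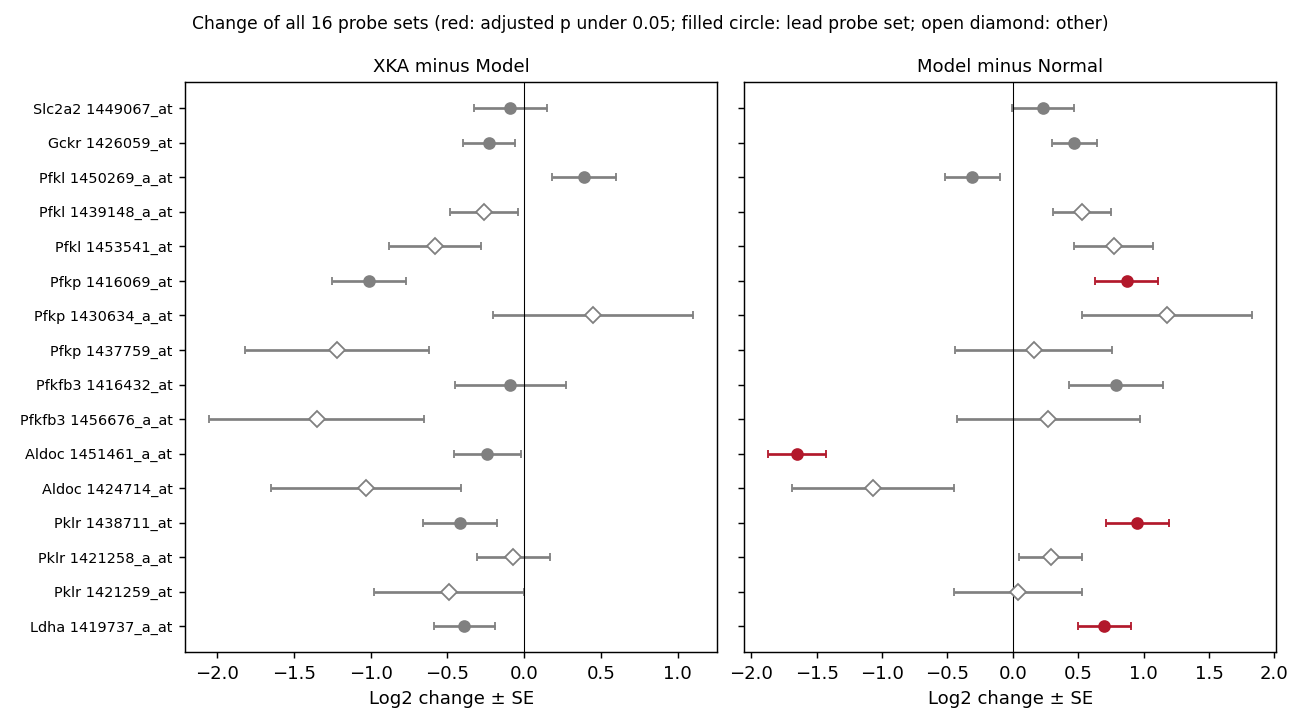
Log2 change ± standard error of all 16 probe sets of the 8 genes between the XKA and Model groups (left) and between the Model and Normal groups (right), with filled circles for lead probe sets, open diamonds for the others and red for an adjusted p under 0.05. No probe set passed on the left, and the lead probe sets of Pfkp, Aldoc, Pklr and Ldha passed on the right.

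The study's reverse rate divides the Model mean minus the XKA mean by the Model mean minus the Normal mean, so that 1 is a treated mean equal to the Normal mean. It shares the Model arrays between both differences and is given as a description. It was computed only for leads that passed between the Model and Normal groups. That choice used the same Model arrays, so positive rates are partly built in. The rate was 1.09 for Pfkp, and 1.01 to 1.17 when 1 array was left out at a time. For Aldoc it was -0.0715 (-0.106 to -0.0339). Pklr had 0.469, with 0.352 without XKA replicate 1 and 0.653 without XKA replicate 3. Ldha had 0.582, with 0.416 without Model replicate 3 and 0.811 without XKA replicate 1. The treated mean thus lay near the Normal mean for Pfkp and on the far side of the Model mean for Aldoc. For Pklr and Ldha it lay between both means. None of these genes passed between the XKA and Model groups.

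A list of 24 glycolysis enzymes and related enzymes besides the 8 genes had 19 measured. Of these, 1 rose and none fell between the Model and Normal groups. Over all lead probe sets, 9.48% were called higher and 2.13% lower. The median change of the list was 0.33, beside 0.15 over all genes. The gene that rose was Ldhd, which oxidises D-lactate. It read 63799 to 104563 in the Model group and 27502 to 39554 in the Normal group (change 1.36, standard error 0.17, adjusted p = 2e-05). It was also higher in the XKA group than in the Normal group (1.17, adjusted p = 0.000164). Hk2, the insulin-responsive hexokinase of muscle and fat, had a change of -0.29 (adjusted p = 0.588). Ldhb, the B subunit of lactate dehydrogenase, changed by 0.01 in its lead probe set (-0.25 to 0.28, adjusted p = 0.973), while its 3 other probe sets rose by 1.05, 1.02 and 1.56 (adjusted p = 0.0118, 0.00066 and 0.00297).

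Other probe sets of 3 further enzymes also passed beside a lead that did not. For Pgk1, phosphoglycerate kinase, the lead changed by 0.42 (adjusted p = 0.0603) and 1439435_x_at rose by 1.61 (adjusted p = 0.00165). For Tpi1, triosephosphate isomerase, the lead changed by 0.36 (adjusted p = 0.167) and 1435659_a_at rose by 0.72 (adjusted p = 0.00513). For Bpgm, which makes bisphosphoglycerate, the lead changed by 0.51 (adjusted p = 0.121) and 1448119_at rose by 0.81 (adjusted p = 0.00565). The remaining probe sets of these 3 did not pass. They changed by 0.23 for Pgk1 (1417864_at, adjusted p = 0.382), 0.35 for Tpi1 (1415918_a_at, adjusted p = 0.23) and 0.42 for Bpgm (1415864_at, adjusted p = 0.0838). Over all probe sets, 6.07% were called higher between the Model and Normal groups. These enzymes, like Aldoa, fall outside the rule for named genes and were picked for their values. Probe sets ending in _x_at can also read related sequences.

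Of 13 listed genes of sugar and lactate carriage besides Slc2a2, 2 rose and none fell between the Model and Normal groups. The shares over all lead probe sets were the same 9.48% and 2.13%. The median change of these 13 was 0.21, beside 0.15 over all genes. Slc2a5, the fructose carrier, read 3484 to 6082 in the Model group and 817 to 3008 in the Normal group (change 1.33, standard error 0.28, adjusted p = 0.00344). Its XKA arrays read 4986 to 7579, also above the Normal group (1.61, adjusted p = 0.000994). Bsg, the partner of the lactate carriers, rose by 0.88 in the Model group (adjusted p = 0.000903) and its XKA minus Normal change was 0.40 (adjusted p = 0.176). Slc2a1, the carrier of red cells and most other cells, changed by 0.22 (adjusted p = 0.448).

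Of 7 measured enzymes of neighbouring hexose paths, from a list of 11, 3 rose and 1 fell between the Model and Normal groups, beside 9.48% higher and 2.13% lower over all lead probe sets. Their median change was 0.64, and that of all genes 0.15. Tkfc, which phosphorylates glyceraldehyde from fructose, read 13347 to 21204 in the Model group and 5613 to 10205 in the Normal group (change 1.15, standard error 0.22, adjusted p = 0.00185). In the XKA group it read 6159 to 14440, and its XKA minus Model change of -1.04 (-1.50 to -0.58) had an adjusted p of 0.0822. It passed with unscaled deposited values (-1.01, adjusted p = 0.0474) and with quantile normalization (-0.99, adjusted p = 0.0274). Gnpda1, which returns glucosamine phosphate to fructose phosphate, rose by 1.01 (adjusted p = 0.00257), and Mpi, which joins mannose phosphate to fructose phosphate, by 0.93 (adjusted p = 0.0141). Galt, of galactose use, fell by 0.52 (adjusted p = 0.0311), and by 0.81 in the XKA group relative to the Normal group (adjusted p = 0.00164).

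Of 17 measured regulators, from a list of 18, 3 rose and 1 fell between the Model and Normal groups, again with 9.48% higher and 2.13% lower over all lead probe sets. The list had a median change of 0.20, and all genes 0.15. Srebf1, the lipogenic factor that insulin induces, had the largest change, 1.99 (standard error 0.23, adjusted p = 9.22e-06), and was also higher in the XKA group than in the Normal group (1.62, adjusted p = 0.000158). Foxo1, the factor that insulin shuts out of the nucleus, rose by 0.71 (adjusted p = 0.012), and Egln1, an oxygen sensor, rose as well. Txnip, which restrains glucose uptake, read 5864 to 13164 in the Model group and 16698 to 39897 in the Normal group (change -1.38, standard error 0.27, adjusted p = 0.00219). The XKA minus Normal change of Txnip was -1.10 (adjusted p = 0.0189). The lead probe set of Mlxipl, named here because ChREBP is introduced above, did not pass. Its mean signal was 30000 in the XKA group, 32400 in the Model group and 28400 in the Normal group. The activity of ChREBP was not measured. Other probe sets of 2 more regulators passed and were lower in the Model group. For Ppargc1a, a coactivator of fasting genes, 1456395_at fell by 0.98 (adjusted p = 0.00988) and the lead changed by -0.64 (adjusted p = 0.0801). For Hnf4a, a hepatocyte transcription factor, 1427000_at fell by 0.61 (adjusted p = 0.0174) and the lead changed by 0.22 (adjusted p = 0.456). Both genes were picked for these values and have further probe sets that are not given here. Over all probe sets, 2.38% were called lower between the Model and Normal groups. No lead probe set of these 4 lists passed between the XKA and Model groups.

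**Figure D3:**
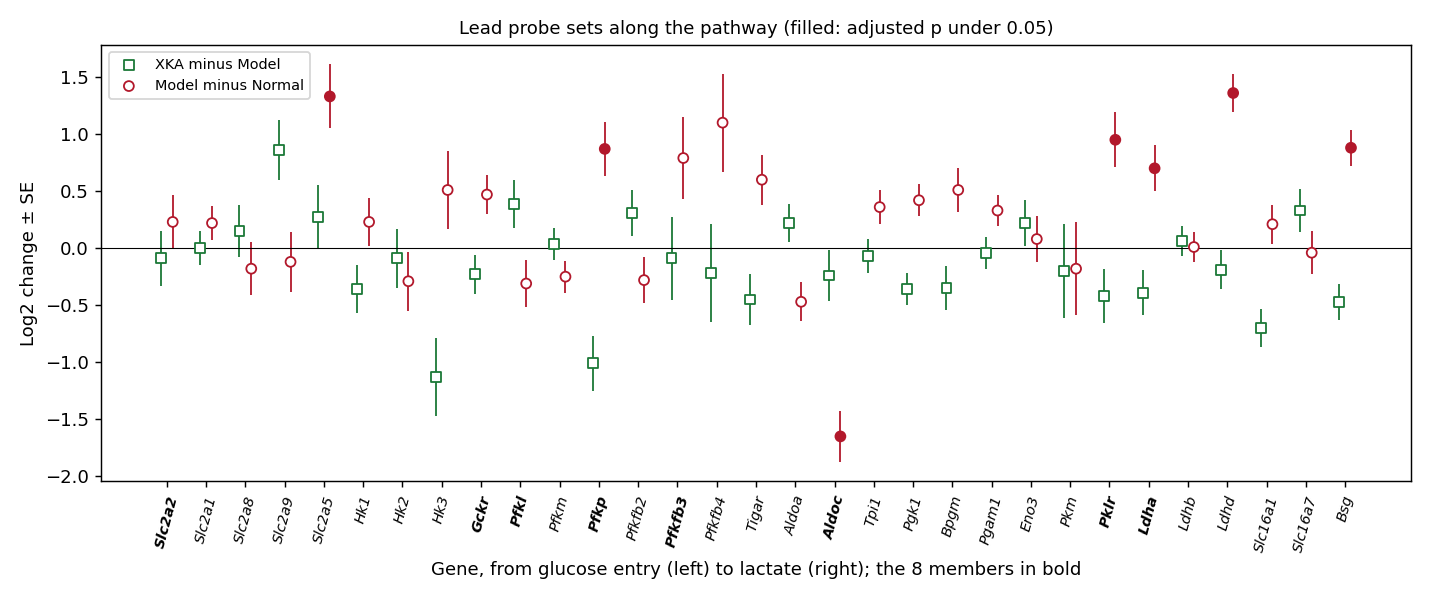
Log2 change ± standard error of lead probe sets ordered along the pathway from glucose entry to lactate, as green squares between the XKA and Model groups and red circles between the Model and Normal groups, filled where adjusted p was under 0.05. Filled points are Slc2a5, Pfkp, Aldoc, Pklr, Ldha, Ldhd and Bsg, all between the Model and Normal groups, and Aldoc at -1.65 is the lowest of these.

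The genes most like Aldoc, Pklr and Pfkp over the 15 arrays were taken by Pearson's r among 11628 other genes with a lead above the array median. The arrays share group differences, so r is also given after taking out group means, and both are descriptions. For Aldoc they were Tm7sf2 (r = 0.978, 0.95 within groups), Pttg1 (0.977, 0.83 within groups) and Prxl2c (0.972, 0.92 within groups). Tm7sf2, an enzyme of cholesterol synthesis, had a Model minus Normal change of -1.96, beside -1.65 for Aldoc. Genes picked by r share the array pattern of the member by choice, so such changes are not separate results.

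For Pklr they were Pepd (r = 0.965, 0.95 within groups), Mgam (0.958, 0.93 within groups) and Tmprss6 (0.945, 0.90 within groups). Pepd, a dipeptidase, was high in XKA replicates 2 and 3 and low in the other XKA arrays, as Pklr was. For Pfkp they were 3000002C10Rik (r = 0.924, 0.79 within groups), Suds3 (0.915, 0.75 within groups) and Trip13 (0.895, 0.70 within groups). Trip13, a protein of the mitotic checkpoint, had a Model minus Normal change of 1.43. These likenesses too come with the choice by r.

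**Figure D4:**
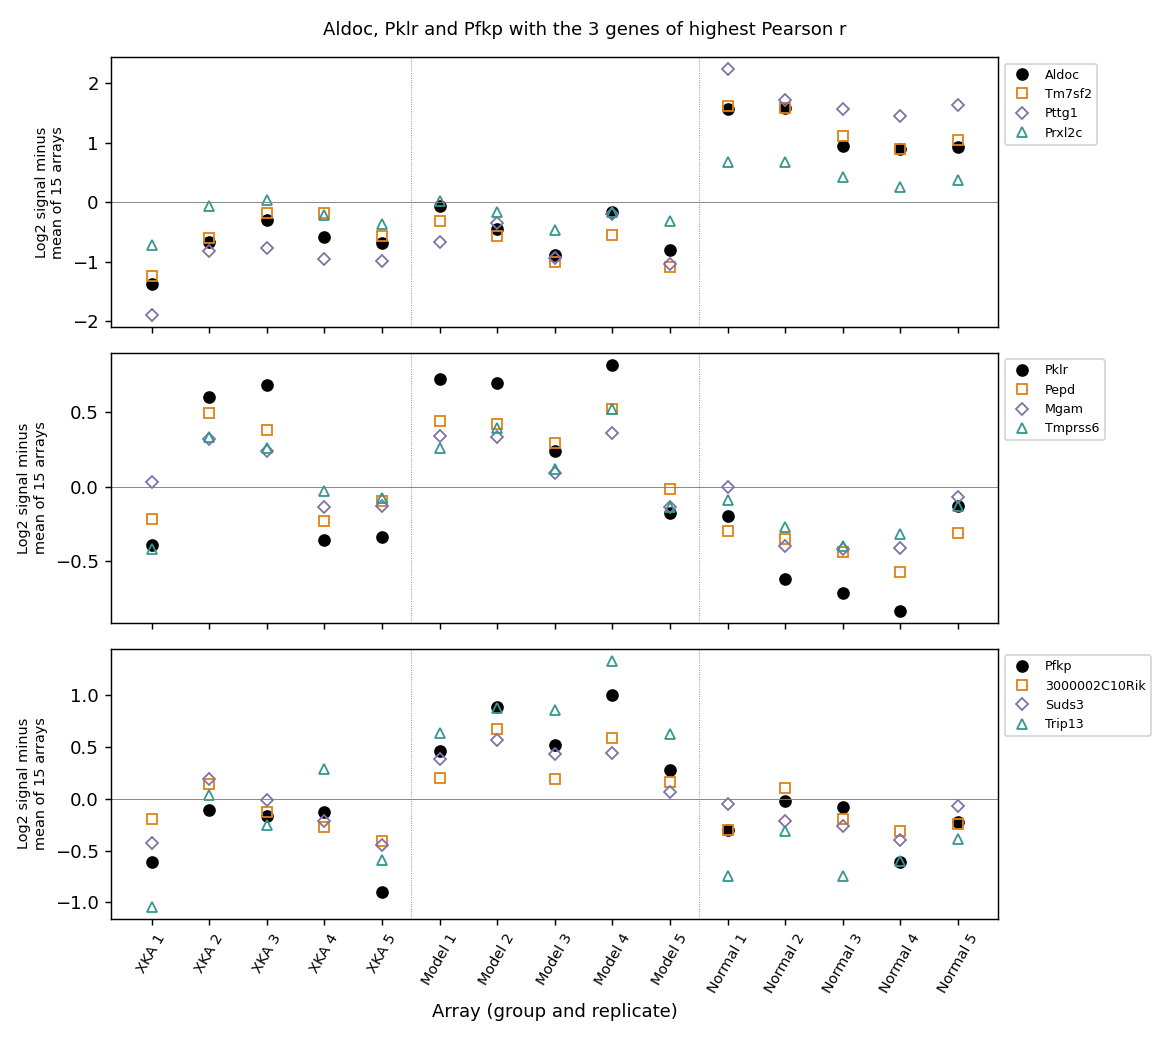
Log2 scaled signal minus the mean over the 15 arrays for Aldoc, Pklr and Pfkp (black circles) and the 3 genes of highest Pearson r with each (open symbols), by array, with the XKA, Model and Normal groups from left to right. Pklr and its 3 genes split the XKA arrays in the same way, and Aldoc and its 3 genes are highest in the Normal group.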

How the data were processed

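The authors deposited linear probe-set intensities, 1 column per array, with no counts and no detection calls. The methods name ArrayTrack 3.5.0 and scaling to a median of 1000, but deposited intensity medians ran from 127.2 to 182.1, so each array was rescaled to a median of 1000. The summary of probes was not given in the sources used here. After leaving out 64 controls, 45037 probe sets were tested on log2 values with limma 3.58.1 in R 4.3.3, all 15 arrays in 1 fit with an intensity trend, two-sided, Benjamini-Hochberg adjusted p under 0.05. Of these, 34945 carried 1 gene, 932 several and 9160 none listed. The fit was tested on simulated data first. Single probe sets also had exact permutation tests. Dunnett comparisons followed the methods (mvtnorm 1.3.3). Figures were drawn with matplotlib 3.10.9 and pandas 2.3.3 under Python 3.11.15. Promoter windows came from RefSeq.

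The members and the gene lists were chosen with earlier results of these data known. By the rule for named genes, all members are given with every probe set, up to 10 passing genes of the lists with the largest change are given with values, and some neighbouring enzymes in any case. Alternatives covered scaling, trend, array weights, probe-set choice, dim probe sets, a pseudocount of 100, the samples fitted, the replicate block, Dunnett comparisons and each array left out. Leaving out Model replicate 3 with XKA replicate 1 was chosen after seeing the data.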

Additional observations from a re-analysis of the deposited data

Results flagged for a closer look

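In 48 groups of 5 arrays (16 probe sets in 3 groups), the gap between an extreme array and the nearest other was compared with the range of its group, and 3 exceeded the Dixon limit of 0.71. Chance alone would mark a few of 48 groups, since the limit is a 95% one. All lie in dim probe sets that are not the lead of their gene, and no call rests on them. Pfkp 1437759_at read 148 in Normal replicate 5, beside 352 to 441 in the other Normal arrays. Pklr 1421259_at read 881 in Model replicate 3, one of the arrays with a high acute phase signal, beside 360 to 436 in the other Model arrays. The same probe set read 1260 in Normal replicate 1, beside 252 to 384 in the other Normal arrays.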

How the results depend on the processing

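The Aldoc lead passed between the Model and Normal groups under every alternative run, and between the XKA and Normal groups under every alternative run for that comparison, which had no Dunnett test. The other calls between the Model and Normal groups were less stable. Instead of 4 genes, 2 passed with unscaled deposited values (Aldoc and Pklr), without the intensity trend (Pfkp and Aldoc), with the mean of a gene's probe sets (Aldoc and Ldha) and with adjusted Dunnett comparisons (Pfkp and Aldoc), and 3 passed with trimmed mean scaling, which lost Ldha. With 1 array left out the count ranged from 2 to 5, and it was 2 without Model replicate 4 or without Normal replicate 4. Array weights gave 5, adding Gckr. Between the XKA and Model groups, unadjusted Dunnett comparisons gave 1 gene, Pfkp, and every alternative with an adjusted p gave 0. The adjusted p of Pfkp was 0.0747 after quantile normalization. Exact permutation tests, which were not adjusted, gave p = 0.00794 for the Pfkp lead and p = 0.0397 for the Pfkl lead. The cause of these shifts was not tested.

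Over all probe sets the 36 calls between the XKA and Model groups became 72 as deposited, 135 after quantile normalization, 117 with trimmed mean scaling, 63 without dim probe sets, 17 with only the 2 groups compared, 0 without the trend, 2126 with unadjusted and 0 with adjusted Dunnett comparisons, and 9 (without XKA replicate 3) to 56 (without XKA replicate 1) with 1 array left out. The 3804 calls between the Model and Normal groups became 2409 without the trend and 7036 or 2098 with unadjusted or adjusted Dunnett comparisons, and the 2154 between the XKA and Normal groups became 1208 without the trend. The 15 correlations of same-numbered arrays ran from -0.12 to 0.18 with 1 over 0.1, that of replicate 5 in the XKA and Model groups. Replicate 5 also had deposited medians of 161.3, 162.2 and 163.3 in the XKA, Model and Normal groups. Differently numbered arrays were not compared, so whether the numbers mark a pairing or a batch was not settled. With the replicate number as a block the members called were the same, 4, 0 and 1, and the calls over all probe sets were 3380, 24 and 1900.

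The changes that turned direction were all ones that did not pass. As deposited and with trimmed mean scaling, Pfkp 1437759_at became -0.03 and -0.01 and Pklr 1421259_at -0.15 and -0.13 (Model minus Normal), and the Pfkl lead -0.08 and -0.05 (XKA minus Normal). As deposited, Slc2a2 became -0.01 (XKA minus Normal). With the mean of a gene's probe sets, Pfkl became 0.33 (Model minus Normal) and -0.15 (XKA minus Model), and Pfkp 0.14 and Pfkfb3 -0.19 (XKA minus Normal). As deposited and after quantile normalization, Ldhb became -0.18 and -0.13 (Model minus Normal) and -0.09 and -0.03 (XKA minus Normal), Slc2a1 0.04 and 0.05 (XKA minus Model), and Tkfc -0.05 and -0.01 (XKA minus Normal). With 1 array left out, the ranges that crossed 0 between the Model and Normal groups were -0.13 to 0.41 for Pfkp 1437759_at, -0.17 to 0.66 for Pfkfb3 1456676_a_at and -0.20 to 0.41 for Pklr 1421259_at. Between the XKA and Model groups they were -0.23 to 0.10 for Slc2a2, -0.35 to 0.11 for the Pfkfb3 lead and -0.23 to 0.07 for Pklr 1421258_a_at. Between the XKA and Normal groups they were -0.03 to 0.31 for Pfkl 1453541_at and -0.07 to 0.21 for the Pfkl lead. Without both Model replicate 3 and XKA replicate 1, Pfkfb3 1456676_a_at became -0.17 and Pklr 1421259_at -0.20 (Model minus Normal), and the Pfkfb3 lead 0.01 (XKA minus Model). No detection calls were used, so signals below the array median may lie near background.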
